A study of Mus musculus with 12 samples.

Results

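The genes described are the 8 collagen genes of the basement membrane, Col4a1, Col4a2, Col4a3, Col4a4, Col4a5, Col4a6, Col15a1 and Col18a1. They were taken by gene symbol, as the transcript clusters that the platform annotation pairs with that symbol alone, and all 8 were found among the 19938 genes measured, each with a single cluster. The study profiled islets of Langerhans from 8 week old Rip1Tag2 mice on a C57BL/6 background, in which the rat insulin promoter drives the SV40 T antigen in beta cells, so islets of both groups carry the transgene. Islets were sorted into angiogenic and non angiogenic by their appearance. Total RNA from pools of each kind was hybridised to 12 Affymetrix mouse gene arrays, 6 for each kind. The size of a pool, whether each array had its own pool, and whether any mouse gave islets to more than 1 pool are not stated. The p-values therefore measure only the spread between these arrays. Values are log2 levels made by the authors with RMA, on which a difference of 1 is a doubling. They were compared with limma (two-sided, Benjamini-Hochberg adjustment over all 19938 genes).

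Basement membranes are thin sheets of matrix that lie under epithelia and around capillaries, and each islet capillary is wrapped in one. Collagen IV forms their network. Its chains assemble into trimers of fixed make-up, of which the trimer of Col4a1 and Col4a2 chains is found in nearly all basement membranes, while trimers of Col4a3, Col4a4 and Col4a5 chains, or of Col4a5 and Col4a6 chains, are best known from kidney, lung and smooth muscle. The 6 genes lie in the genome as 3 head-to-head pairs, each read in opposite directions from a shared region between the partners. Col15a1 and Col18a1 encode the multiplexins, collagens with interrupted triple helices that carry glycosaminoglycan chains and link the basement membrane to its surroundings. The C-terminal piece of the Col18a1 product is endostatin, an inhibitor of angiogenesis, and fragments with like activity are known from collagen IV chains and from collagen XV.

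The arrangement of the start sites is shown first. Its part in the expression differences was not tested, and the pair of Col4a3 and Col4a4 could not be included. Start regions came from RefSeq (GRCm38.p6), which gave a window for 7 of the 8 genes (not Col4a3). The annotated starts of Col4a1 and Col4a2 lie 21 bases apart on chromosome 8 and the 5′ ends of their transcripts overlap, so that the same 30 bases, printed here once for each strand, span both starts at chr8:11312801-11312830. Capitals mark GGGCGG or its complement, the Sp1 box. The starts of Col4a5 and Col4a6 are 1343 bases apart on chromosome X, and the stretches before them do not overlap (chrX:141475169-141475369 on the plus strand and chrX:141474096-141474326 on the minus strand). These stretches stop where the annotated gene begins, some bases short of the start used for the distance. For Col18a1, which has 2 annotated starts, the 250 bases before the outer one are given (chr10:77166531-77166780, minus strand). All are written 5′ to 3′ in the direction of the gene.
Col4a1: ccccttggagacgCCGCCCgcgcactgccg
Col4a2: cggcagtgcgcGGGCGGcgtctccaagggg
Col4a5: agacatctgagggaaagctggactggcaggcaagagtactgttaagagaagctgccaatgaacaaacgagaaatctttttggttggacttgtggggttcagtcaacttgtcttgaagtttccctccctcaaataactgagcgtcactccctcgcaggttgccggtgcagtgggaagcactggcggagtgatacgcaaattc
Col4a6: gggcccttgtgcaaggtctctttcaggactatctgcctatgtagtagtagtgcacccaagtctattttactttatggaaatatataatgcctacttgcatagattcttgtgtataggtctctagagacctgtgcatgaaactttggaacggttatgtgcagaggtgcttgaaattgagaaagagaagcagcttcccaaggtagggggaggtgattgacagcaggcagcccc
Col18a1: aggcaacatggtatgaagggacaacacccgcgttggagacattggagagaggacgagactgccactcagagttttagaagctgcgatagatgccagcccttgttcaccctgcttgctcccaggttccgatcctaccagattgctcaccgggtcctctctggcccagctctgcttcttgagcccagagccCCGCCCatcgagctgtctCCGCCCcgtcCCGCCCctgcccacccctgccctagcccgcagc

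Over the whole windows, from 250 bases before to 50 after a start and read on both strands, GGGCGG occurred in 5 of the 8 windows of these genes and in 35.7% of all 32851 windows. The windows of Col4a2 and of the outer Col18a1 start held 3 matches each, and those of Col4a1, Col4a5 and Col4a6 held 1 each, outside the printed stretches for Col4a5 and Col4a6, while Col15a1, Col4a4 and the inner Col18a1 start had none. Genes that rose and genes that did not pass the test were thus found both with and without the box. The 1 match in the Col4a1 window is also in the Col4a2 window, since the windows share 78 bases. CCAAT occurred in 4 of the 8 windows (Col4a1, Col4a2, Col4a5 and the outer Col18a1 start) and in 37.4% of all windows. The TATA box letters TATAAA were in none of the 8, against 13.6% of all windows. The AP-1 site TGANTCA was also in none, against 7.81%. The same held for the ETS site with the letters CCGGAA, which 14.9% of all windows contained. These are matches of letters and not measured binding sites.

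The 8 genes fell into 2 kinds. Col4a1, Col4a2, Col15a1 and Col18a1 were higher in angiogenic islets (limma, adjusted p under 0.05), each with all its angiogenic arrays above all its non angiogenic ones, and the other 4 chains of collagen IV were near 0 in their difference. None was lower. Among all genes 3.55% were higher and 0.948% lower by the same test, while 2.85% had every angiogenic array above every non angiogenic array and 0.923% the reverse. The 4 genes that rose are also on the matrix signature that the study selected on these arrays, so their direction is not independent evidence. As whole islets were measured, more cells of a type and more RNA per cell cannot be told apart.

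Col4a1 encodes a chain of the collagen IV trimer that is found in nearly all basement membranes. Its log2 level had a low of 8.58, a median of 8.68 and a high of 8.79 in non angiogenic islets, and a low of 9.18, a median of 9.33 and a high of 9.49 in angiogenic islets. The groups were separated by 0.39, more than either group spanned. The means were 8.68 ± 0.08 (SD, n = 6) and 9.33 ± 0.12 (SD, n = 6), a ratio of 1.57 (log2 difference 0.66, 95% interval 0.53 to 0.78, adjusted p = 1.10e-05 from limma).

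Col4a2, its partner in the trimer and in the genome, was higher by a somewhat wider margin. In non angiogenic islets its log2 level lay between 8.68 and 8.97 with a median of 8.80, and in angiogenic islets between 9.34 and 9.90 with a median of 9.63. Angiogenic replicate 2 gave the highest level of both genes. The ratio of Col4a2 was 1.74 (log2 difference 0.80, 95% interval 0.62 to 0.98, adjusted p = 3.29e-05 from limma).

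Col15a1, the collagen XV gene, changed most of the 8. Its log2 level was 8.57 at the lowest, 8.67 at the median and 8.84 at the highest in non angiogenic islets, and 9.44, 9.58 and 9.71 in angiogenic islets. The gap of 0.60 between the groups was the widest of the 8 genes. The means of 8.68 ± 0.11 and 9.58 ± 0.11 (SD, n = 6 each) gave a ratio of 1.87 (log2 difference 0.90, 95% interval 0.76 to 1.04, adjusted p = 1.13e-06 from limma).

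Col18a1, the collagen XVIII gene with the endostatin sequence at its end, rose least of the 4. Its log2 level ran from 7.19 through a median of 7.40 to 7.59 in non angiogenic islets, and from 7.59 through 7.88 to 8.25 in angiogenic islets. The groups did not overlap, but the lowest angiogenic array (replicate 5) lay only 0.0017 above the highest non angiogenic one (replicate 1). The ratio was 1.404 (log2 difference 0.49, 95% interval 0.27 to 0.71, adjusted p = 0.013 from limma). By the methods' t-test after adjustment it missed the threshold (adjusted p = 0.0507), and without any 1 array the adjusted p from limma ran from 0.00577 to 0.0341. The cluster does not separate the transcripts of the 2 starts.

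**Figure D1:**
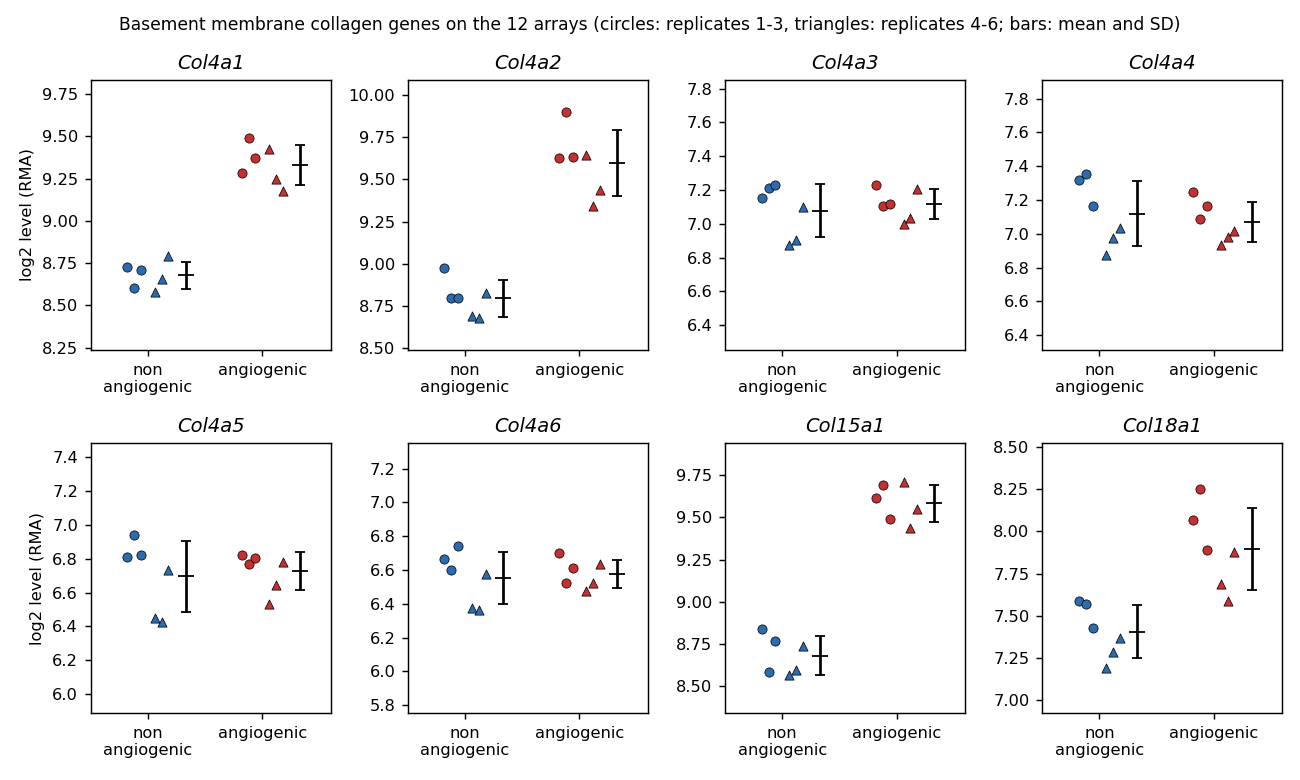
Log2 level (RMA) of each of the 8 genes on the 12 arrays, non angiogenic in blue and angiogenic in red, with circles for replicates 1 to 3, triangles for replicates 4 to 6, and bars for the mean and SD of 6 arrays. Every panel spans a log2 range of the same width. Col4a1, Col4a2, Col15a1 and Col18a1 have all red points above all blue points, and in the other panels the colours mix.

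Col4a3, which encodes a chain of the kidney type network and carries the Goodpasture antigen, had a low of 6.87, a median of 7.13 and a high of 7.23 in non angiogenic islets against 7.002, 7.11 and 7.23 in angiogenic islets. The angiogenic range lay within the non angiogenic one. Its log2 difference was 0.04 (95% interval -0.12 to 0.19, adjusted p = 0.90 from limma).

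Col4a4, its partner, ran from 6.87 to 7.35 in non angiogenic and from 6.93 to 7.25 in angiogenic islets, with medians of 7.10 and 7.05. The difference was -0.05 (95% interval -0.23 to 0.13), the only negative one of the 8, and it did not pass the test (adjusted p = 0.89 from limma). Col4a5, the gene affected in X-linked Alport syndrome, ran from 6.43 to 6.94 and from 6.53 to 6.82, with medians of 6.77 and 6.78. Col4a6, which lies next to it on the X chromosome, ran from 6.36 to 6.74 and from 6.48 to 6.70, with medians of 6.59 and 6.57. The differences were 0.03 for Col4a5 (95% interval -0.16 to 0.22, adjusted p = 0.95) and 0.02 for Col4a6 (95% interval -0.13 to 0.17, adjusted p = 0.94), both from limma. For each of these 4 chains the upper end of the interval lay below the lower end of the intervals of Col4a1, Col4a2, Col15a1 and Col18a1. A missed test does not show that levels were equal. RMA compresses weak signals, and the files hold no detection calls, so whether these chains were above background was not tested. Of the 8 genes, only Col4a1, Col4a2 and Col15a1 passed a filter at the median level of all genes, so the other 5 leave the comparison if dim genes are dropped.

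The arrays fell into 2 sets, replicates 1 to 3 and replicates 4 to 6 of both groups. The labels do not say what the sets are. The study's text speaks of 2 independent profiling experiments, and whether the sets are those is not stated, so the 6 arrays of a group may not be 6 equally independent samples. With group in the model, the sets differed in 36.9% of all genes (limma, adjusted p under 0.05) and in 6 of the 8 collagen genes, each lower in replicates 4 to 6. Col4a1 and Col15a1 were the exceptions (adjusted p = 0.49 and 0.41). The largest shifts were -0.30 for Col18a1 and -0.25 for Col4a4, and for Col4a4, Col4a5, Col4a6 and Col4a3 the shift between sets was larger than the difference between groups. Each set holds 3 arrays of each group, so the comparison was repeated within them.

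Fitted alone, each set called the same 4 genes higher and no collagen gene lower by limma. Of all genes, 2.37% were higher and 0.331% lower in replicates 1 to 3, and 3.11% and 0.737% in replicates 4 to 6. The log2 differences in the 2 sets were 0.70 and 0.61 for Col4a1, 0.86 and 0.74 for Col4a2, and 0.87 and 0.93 for Col15a1. For Col18a1 they were 0.54 and 0.44. Within the sets its groups stood clearly apart, at 7.43 to 7.59 against 7.89 to 8.25 in replicates 1 to 3 and at 7.19 to 7.37 against 7.59 to 7.88 in replicates 4 to 6. With the set as a block its adjusted p was 1.72e-04, in a fit that called 5.88% of all genes higher and 2.74% lower.

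Col4a3, Col4a4, Col4a5 and Col4a6 had differences of -0.05, -0.11, -0.06 and -0.06 in replicates 1 to 3 and of 0.12, 0.02, 0.12 and 0.11 in replicates 4 to 6. All 4 changed sign between the sets, and none passed in either (lowest adjusted p = 0.49 from limma). The difference between the sets did not pass for any of the 8 genes by the interaction of group and set (limma, adjusted p from 0.80 to 0.94, lowest unadjusted p = 0.128). Among all 19938 genes the same interaction passed for 1, whose difference was smaller in replicates 4 to 6 (0.00502%).

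**Figure D2:**
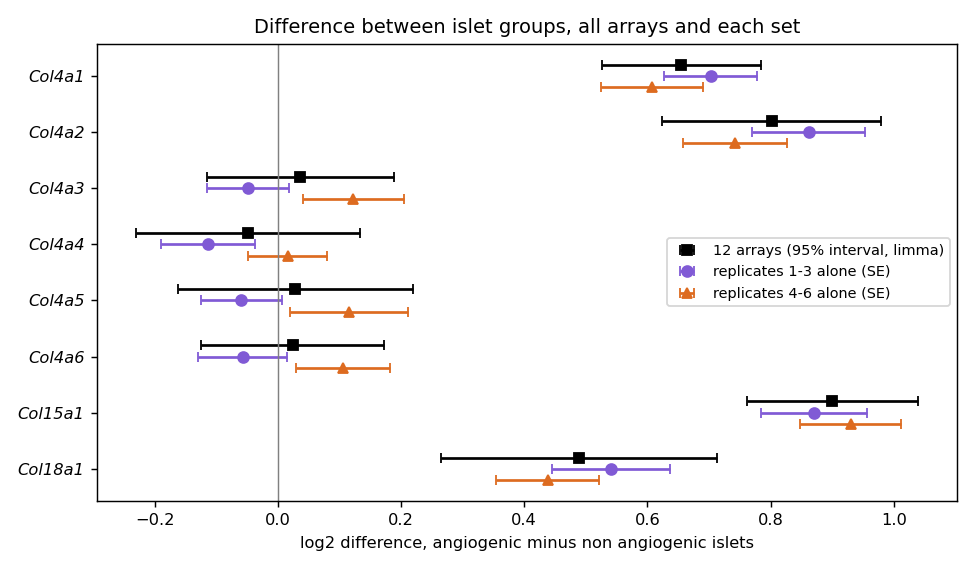
Log2 difference, angiogenic minus non angiogenic islets, for each gene over all 12 arrays (black squares, 95% interval from limma) and within replicates 1 to 3 (purple circles) and 4 to 6 (orange triangles), both with the standard error. Col4a1, Col4a2, Col15a1 and Col18a1 lie to the right of 0 in every case, and Col4a3 to Col4a6 lie around it.

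Since collagen IV chains work in fixed sets, the balance of paired genes was followed within each array, as the difference of their log2 levels. Col15a1 and Col18a1 were paired only as the multiplexins, not as partners in a trimer. Whether this balance differed between the groups was tested by an exact permutation test over the 924 splits of the arrays (two-sided, smallest possible p = 0.00216), adjusted over 4 pairs. Probes of different genes are not on one scale, so the values show only whether the balance moved.

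Col4a2 minus Col4a1 was 0.12 ± 0.09 (SD, n = 6) in non angiogenic and 0.26 ± 0.11 (SD, n = 6) in angiogenic islets. The ranges, 0.02 to 0.25 and 0.09 to 0.41, overlapped. The shift of 0.15 towards Col4a2 had p = 0.028 and adjusted p = 0.0562 by the exact permutation test, and was 0.16 and 0.14 in the 2 sets. It missed the threshold in this test, which exchanges arrays across the sets. An exact permutation test that exchanges arrays only within their set, over 400 splits, was added after the data were seen and gave adjusted p = 0.03, and in replicates 1 to 3 the groups did not overlap. An exact sign-flip test over the replicate numbers gave adjusted p = 0.0625, from the smallest p it allows (0.0312). Without non angiogenic replicate 1 the exact permutation test across sets passed (adjusted p = 0.030), and without angiogenic replicate 5 it also passed (adjusted p = 0.017). In the other 10 of the 12 fits without 1 array it missed the threshold, with adjusted p up to 0.134.

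Among the multiplexins the balance moved further. Col18a1 minus Col15a1 was -1.28 ± 0.14 in non angiogenic and -1.69 ± 0.21 in angiogenic islets (SD, n = 6 each), with ranges of -1.38 to -1.01 and of -2.02 to -1.44 that did not overlap. The change of -0.41 had the smallest p the test allows, 0.00216 (adjusted p = 0.00864, exact permutation test), and was -0.33 and -0.49 in the 2 sets. On this scale the log2 difference of Col15a1 was larger than that of Col18a1. The mean level of Col18a1 lay at the 48.3 percentile of all genes and that of Col15a1 at the 73.7 percentile, and the part of signal compression in this change of balance was not tested. With arrays exchanged only within sets the adjusted p was 0.02 by the exact permutation test. By the exact sign-flip test over replicate numbers it was 0.0625, from the smallest p that test allows (0.0312). The balance of Col4a4 and Col4a3 moved by -0.09 (adjusted p = 0.18) and that of Col4a6 and Col4a5 by -0.0041 (adjusted p = 0.94), both within the spread of the arrays by the exact permutation test.

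**Figure D3:**
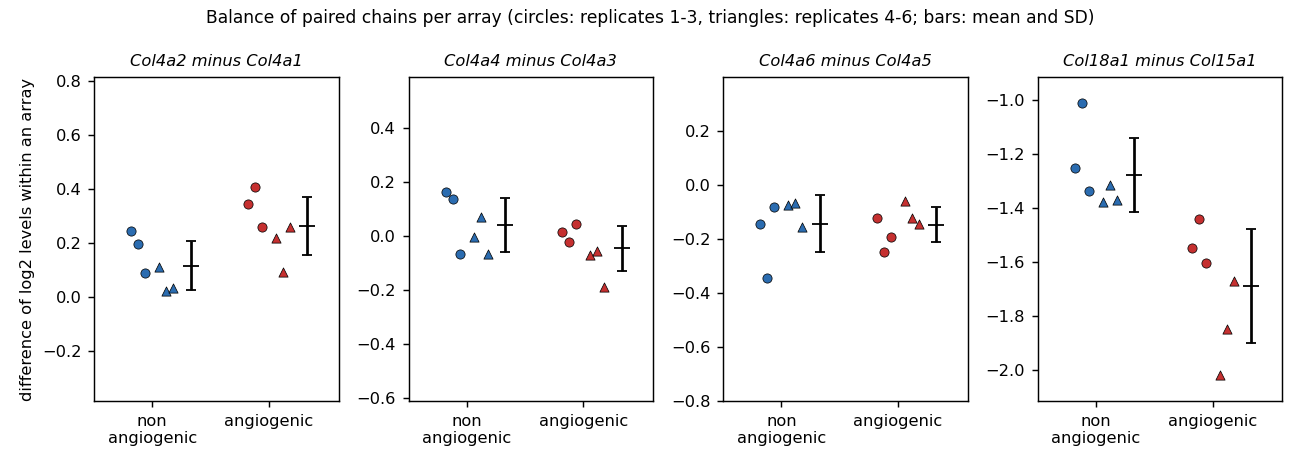
Difference of the log2 levels of paired genes within each array, non angiogenic in blue and angiogenic in red. Circles stand for replicates 1 to 3, triangles for replicates 4 to 6, and bars for the mean and SD of 6 arrays. The groups are apart for Col18a1 minus Col15a1, and overlap for the 3 collagen IV pairs.

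How closely the genes followed each other from array to array was described by Pearson's r over the 12 arrays after the mean of each group within each set had been removed. These points share arrays and normalization, and no test was made. Col4a1 and Col4a2 kept r = 0.81, Col4a2 and Col15a1 0.84, and Col4a1 and Col15a1 0.75. Col18a1 was less close, at 0.58 to Col4a2, 0.46 to Col15a1 and 0.19 to Col4a1. Among the chains that did not pass, Col4a3 had r = 0.88 with both Col4a5 and Col4a6, and Col4a4, its partner in the genome, 0.54. Between these 4 chains and Col4a1, Col4a2 and Col15a1, r lay between -0.27 and 0.21. Col18a1 was less set apart from them, with r of 0.41, 0.29, 0.40 and 0.09 to Col4a3, Col4a4, Col4a5 and Col4a6.

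**Figure D4:**
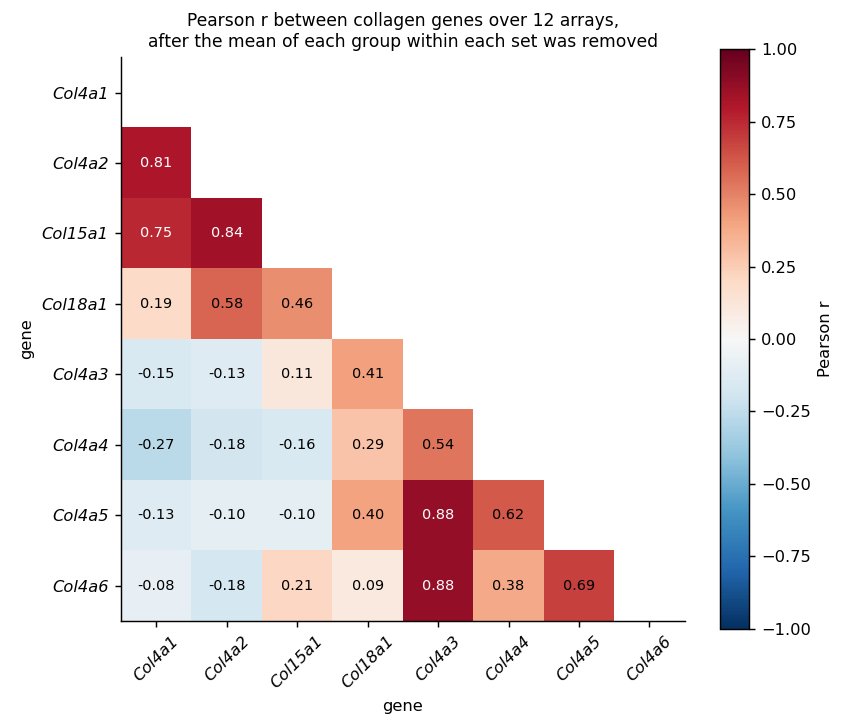
Pearson r between each 2 of the 8 genes over 12 arrays, after the mean of each group within each set was removed (red positive, blue negative). Col4a1, Col4a2 and Col15a1 form one block with r of 0.75 to 0.84, and Col4a3, Col4a5 and Col4a6 another with r of 0.69 to 0.88.

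Genes with the most similar pattern were ranked by r over the 12 arrays with groups and sets left in, which favours genes that also differ between the groups. Of the 19937 other genes, Col4a1 was the fourth closest to Col4a2, and Col4a2 the sixth closest to Col4a1, but with the means removed they ranked 124 and 101. With groups and sets left in, the partner ranked 352 for Col4a5 and 1106 for Col4a3, and with the means removed 1261 and 3125. Piezo2, which encodes a mechanically gated ion channel, was among the 3 closest genes of Col4a1, Col4a2 and Col15a1 (r = 0.99, 0.98 and 0.99) and kept r of 0.82, 0.95 and 0.91 with the means removed. Its ratio was 2.03 (adjusted p = 4.94e-06 from limma). The other close genes of these 3 were Col8a1, a short-chain collagen of vessel walls, the fibrillar collagen gene Col3a1, Ltbp4, which encodes a latent TGF-β binding protein, the endothelial cadherin gene Cdh5 and the laminin gene Lamc1, all with r of 0.98 or 0.99. Col18a1 was closest to Aoc3, Dchs1 and Fxyd5 (r = 0.96 each), with ratios of 1.355, 1.33 and 1.33. The closest genes of the 4 other chains had differences near 0 themselves, among them Shh for both Col4a3 and Col4a5 (r = 0.95 and 0.97), and Defb34 and Olfr417 for Col4a3. The rest were Nlrc5, Ripor1 and A630072L19Rik for Col4a4, Col9a3 and Foxl2os for Col4a5, and C230062I16Rik, Spata25 and Mir181d for Col4a6.

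Collagen IV is laid on a laminin network and tied to it by linker proteins. Of 10 laminin chain genes, limma called 6 higher and none lower, and the median log2 difference was 0.36 against -0.02 for all genes. In the same fit 3.55% of all genes were higher and 0.948% lower. Lama4, the alpha chain of vessel laminin, was 1.86-fold, Lama2, the alpha chain of muscle and nerve laminin, 1.71-fold, and Lamc1, the gamma chain shared by most laminins, 1.58-fold higher. Lama3 and Lamb3 of the epithelial laminin did not pass (log2 differences of 0.05 and 0.01). Among 16 genes of linkers and related proteins, limma called 7 higher and none lower (median 0.16). Nid1, the gene of nidogen 1 that ties laminin to collagen IV, was 1.98-fold higher, the collagen-binding Sparc 1.83-fold, and the extracellular matrix gene Frem1 1.78-fold, while the related Frem2 and Fras1 had log2 differences of 0.14 and 0.06 and did not pass. Of the genes that rose, 3 laminins and 5 linkers are in the signature that the study selected on these arrays.

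Collagen chains must be hydroxylated, folded, exported and cross-linked. Of 22 such genes 10 were higher and none lower (median 0.26), against 3.55% and 0.948% of all genes by limma. Lox and Loxl1, which encode lysyl oxidases, were 4.41-fold and 1.97-fold higher, and Serpinh1, the collagen chaperone HSP47, 1.65-fold. Pxdn, the peroxidase that forms the cross-links special to collagen IV, was 1.41-fold higher (adjusted p = 1.49e-04 from limma), while the prolyl hydroxylase subunits P4ha1 and P4ha2 had log2 differences of -0.02 and -0.01 and did not pass. Of the 10 genes, 5 are in the study's signature.

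Cells bind these collagens through integrins and other receptors, of which 7 of 15 were higher and none lower (median 0.24). Beside them, limma called 3.55% of all genes higher and 0.948% lower. None of the receptors is in the study's signature, which was limited to matrix and matrix-associated genes, so their absence carries no information. The study's wider list of changed genes was not compared. Itga1, the alpha chain of the collagen IV integrin, was 1.81-fold higher (log2 difference 0.85, adjusted p = 2.29e-06 from limma), the collagen receptor gene Ddr2 1.37-fold and the laminin integrin gene Itga6 1.28-fold. Of 16 proteases that cut basement membrane, 6 were higher and none lower (median 0.26), led by the gelatinase gene Mmp2 (2.70-fold), the membrane protease gene Mmp14 (1.94-fold) and the collagenase gene Mmp13 (1.48-fold). Mmp9, the other gelatinase, had a log2 difference of 0.11 and did not pass (adjusted p = 0.59 from limma). Of the 6 proteases, 3 are in the study's signature. Of 6 inhibitors, Timp1 (3.61-fold) and Timp2 (1.35-fold) were higher and none was lower, and Timp3 had a log2 difference of 0.41 with adjusted p = 0.0536 from limma, and passed with the set as a block (adjusted p = 4.55e-04). Of these, Timp1 is in the study's signature. With the set as a block, limma called 6 laminins, 7 linkers, 12 biosynthesis genes, 8 receptors, 7 proteases and 3 inhibitors higher, and none of these lists had a lower gene. In that fit 5.88% of all genes were higher and 2.74% lower. Fits without 1 array called 5 to 6 laminins, 6 to 7 linkers and 8 to 10 biosynthesis genes higher. They called 5 to 6 receptors, 4 to 6 proteases and 2 to 3 inhibitors higher, and no listed gene lower. Of all 19938 genes, these fits called 553 to 715 higher and 110 to 178 lower.

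**Figure D5:**
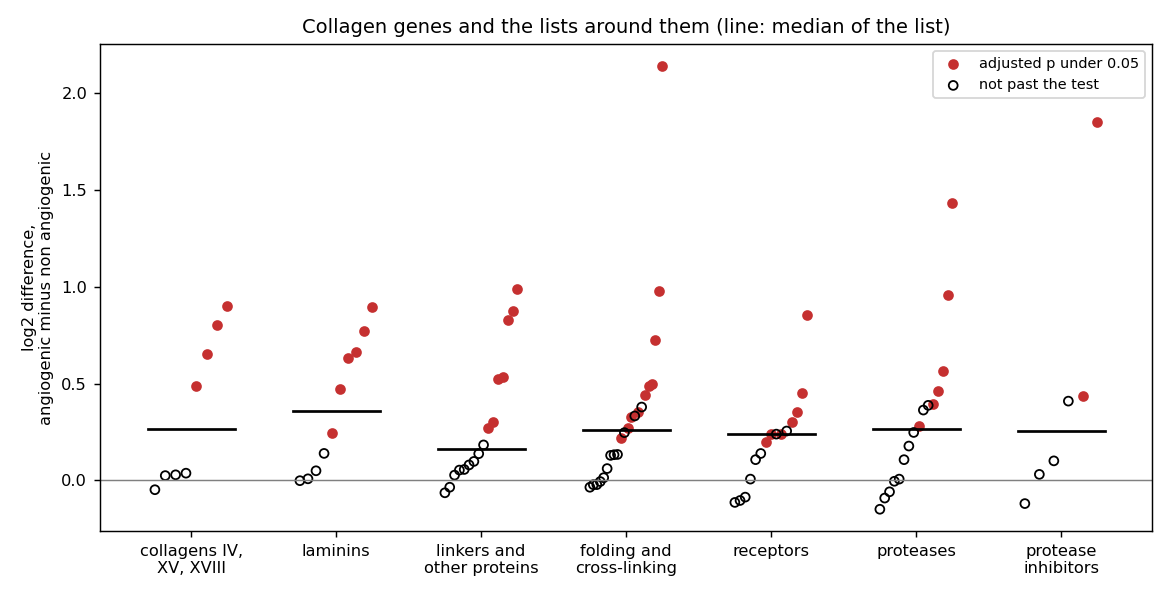
Log2 difference, angiogenic minus non angiogenic islets, of each gene of the collagen group and of the 6 lists around it, filled red where the adjusted p from limma was under 0.05 and open otherwise, with the median of each list as a line. The collagen genes split into 4 near 0 and 4 between 0.49 and 0.90, and no list holds a lower gene past the test.

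Most markers of endothelial cells, pericytes and smooth muscle, fibroblasts and macrophages were also higher in angiogenic islets. Of 19 endothelial markers 15 were higher and none lower, and their mean log2 level ran from 8.79 to 8.95 in non angiogenic and from 9.26 to 9.44 in angiogenic islets. Among all genes limma called 3.55% higher and 0.948% lower. Of 12 pericyte and smooth muscle markers 11 were higher, with means of 7.74 to 7.92 and of 8.39 to 8.77. Of 12 fibroblast markers 9 were higher, with means of 7.80 to 8.14 and of 8.68 to 8.99. Of 10 macrophage markers 7 were higher, with means of 8.01 to 8.25 and of 8.38 to 8.79. The study's signature, selected on these arrays, holds 6 of the 9 fibroblast markers that rose, and 1 each of the pericyte and macrophage markers. That signature was limited to matrix and matrix-associated genes. From the same arrays the study also reported endothelial, perivascular and macrophage markers as higher, among them Pecam1, Cdh5, Acta2, Pdgfrb and Csf1r. The direction of the markers in these lists is therefore not independent evidence. None of these lists had a marker that was lower past the test. With the set as a block 18, 11, 11 and 8 of their markers were higher, beside 5.88% of all genes. The median log2 differences were 0.43 for endothelial, 0.64 for pericyte, 0.75 for fibroblast and 0.53 for macrophage markers, beside 0.66, 0.80, 0.90 and 0.49 for Col4a1, Col4a2, Col15a1 and Col18a1. The part of these cells in the collagen differences was not tested.

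Beta cell markers were high on all arrays, with means of 11.71 to 11.87 in angiogenic and 11.76 to 12.03 in non angiogenic islets. Of these markers, 1 of 9 was lower past the test, or 3 of 9 with the set as a block. In these fits 0.948% and 2.74% of all genes were lower. None of the 5 Schwann cell, 5 duct and 9 acinar markers passed in either direction. Schwann cell means were 6.22 to 6.36 and 6.23 to 6.29 in non angiogenic and angiogenic islets, with Cdh19 in the lowest 10% of all levels, and duct means 7.52 to 7.61 and 7.54 to 7.65, with Cftr in the lowest 10%. Acinar means varied widely, from 7.57 to 10.98 in non angiogenic and from 7.68 to 10.19 in angiogenic islets. The group difference of these means was 0.71 in the first set and -0.14 in the second. The part of acinar RNA in the collagen values was not tested.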

How the data were processed

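The authors deposited log2 levels, 1 per transcript cluster and array. Per the submitters' processing notes these came from Affymetrix Expression Console by RMA. This method sets all arrays to 1 distribution, so a change in total RNA cannot be seen. For tool versions, genome build and whether all arrays were normalized together, the answer is not given in the sources used here. Array medians lay between 7.30 and 7.38. The number of arrays limits the precision.

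Of 35556 clusters, 21789 had 1 symbol, 1621 several and 12146 none. Several clusters named 999 of the genes, and the one with the highest mean stood for them, giving 19938 genes. R 4.3.3 and limma 3.58.1 (lmFit, eBayes) were used on 6 against 6 arrays without covariates. The threshold was an adjusted p under 0.05. The fit and the permutation test were tested on simulated data.

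The collagen genes and lists were chosen with earlier results of these data known. Lists are described by counts and medians. In each, the 3 largest differences past the test were named, or, with fewer past it, those and the largest other, and for each collagen gene the 3 genes with the highest r. Pxdn, P4ha1, P4ha2, Mmp9, Lama3, Lamb3, Frem2 and Fras1 were named after their values were seen. Listed genes without a single-symbol row are not reported here. The alternatives were other tests, scalings, filters and clusters, the replicate number and the set as blocks, each set alone and leaving out each array. Stainings, RT-qPCR and human cohorts were not analysed here.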

Additional observations from a re-analysis of the deposited data

Results flagged for a closer look

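In 4 of 40 groups of 6 arrays that were checked, 1 array stood apart from the other 5 by Dixon's criterion, a criterion that chance passes in about 5% of groups. Non angiogenic replicate 2 gave 3 of the 4. Its Col18a1 minus Col15a1 was -1.01, where the next array had -1.25, its Col4a6 minus Col4a5 was -0.34 (next -0.16), and its mean of Schwann cell markers was 6.36 (next 6.25). Angiogenic replicate 2 had the lowest mean of acinar markers in its group, 7.68 against 9.41 for the next. No level of a single collagen gene stood apart in this way.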

How the results depend on the processing

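Col4a1, Col4a2 and Col15a1 kept their direction and their call in each of 12 fits that left out 1 array and under every other alternative. So did Col18a1, except that the methods' t-test with adjustment gave 0.0507 and that it was removed, with Col4a3 to Col4a6, by the filter on genes below the median level. None of Col4a3 to Col4a6 was called under any alternative. The number of collagen genes higher was 4 and lower 0 in each fit without 1 array, and 3 higher after the filter. Over all genes, 708 were higher and 189 lower. The methods' t-test without adjustment gave 1529 and 1385, the set as a block 1172 and 547, the filter 467 higher and replicates 1 to 3 alone 66 lower. Without 1 array the counts ran from 553 to 715 and from 110 to 178, lowest for lower genes without angiogenic replicate 6.

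Same-numbered arrays of the groups correlated at 0.0276 to 0.538 after group means were removed, 1 of them under 0.1, so the numbers were not taken as pairs, and 4 of 12 arrays correlated best with their own number. With the replicate block 1058 genes were higher and 449 lower, and the same 4 collagen genes were called. For paired genes, an exact sign-flip test over the replicate block gave -0.411 for Col18a1 minus Col15a1 and 0.147 for Col4a2 minus Col4a1. Both had adjusted p = 0.0625, from the smallest p the sign-flip test allows (0.0312). Exchanging arrays only within sets, a choice made after seeing the data, left the 0.147 of Col4a2 minus Col4a1 past the threshold (adjusted p = 0.03, exact permutation). It changed no other call on paired genes. The sets alone gave -0.33 (adjusted p = 0.20) and -0.492 (0.27) by exact permutation, where 3 against 3 arrays cannot pass. Without 1 array this change ran from -0.461 to -0.345 and that of Col4a2 minus Col4a1 from 0.118 to 0.181. Other clusters of the collagen genes could not be tried, as each has 1. Dim genes are limited by the compression of weak signal.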
